A study of Mus musculus with 13 samples.

Results

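Chemokines and their receptors were followed in the mouse hippocampus 3 days after status epilepticus (SE). The members were the 63 of 45777 genes in the deposited table whose symbols begin with Ccl, Cxcl, Cx3cl, Xcl, Ccr, Cxcr, Cx3cr, Xcr or Ackr followed by a digit. They comprised 40 ligands (25 CC, 13 CXC, 1 CX3C and 1 C) and 23 receptors, 4 of them atypical, and 3 of the 63 are annotated as pseudogenes. RNA-Seq libraries of whole hippocampi came from 3 SE-cKO, 3 SE-WT, 4 sham-cKO and 3 sham-WT mice. All groups carried Nestin-Cre, as Nestin-Cre::Lin28a loxP/loxP in cKO and Nestin-Cre::Lin28a+/+ in WT. Nestin-Cre acts in neural progenitors and the neurons and macroglia they give rise to, and not in microglia or blood leukocytes. SE followed pilocarpine, 260 mg/kg for males or 280 mg/kg for females, given at 6 weeks of age after scopolamine and terbutaline, and seizures were stopped with diazepam. Only mice that developed SE were kept, sham mice received saline, and the sex of each library is not labelled.

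Chemokines are small secreted or membrane-anchored proteins, sorted by the spacing of their first cysteines into C, CC, CXC and CX3C classes, and they steer leukocytes and progenitors through G protein-coupled receptors. Atypical receptors bind chemokines without G protein signalling and remove, carry or store them. In healthy brain the best known axes are neuronal Cx3cl1 with microglial Cx3cr1, and Cxcl12 with Cxcr4 and Ackr3, which guide progenitors in the dentate gyrus.

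Library totals ranged from 59659977 to 84354243 counts, and replicate pairs differed by 51.3 to 468 times their sampling variance. A count of 0 in 1 library allows a level of up to 0.0356 to 0.0503 CPM (counts scaled to library size; 3 counts, counting error only). Lin28a itself had 3 counts in SE-WT replicate 3 and 0 in every other library, so it checked no genotype label. Mitochondrial rRNA took 3.92% of counts in SE-cKO replicate 3 and 4.83% of those of SE-WT replicate 3, libraries whose titles also differ in style, against 0.486% to 1.66% elsewhere. Summed striatal neuron markers reached 2456 CPM in SE-WT replicate 2, and summed thalamic markers reached 1304 CPM in SE-WT replicate 3 and 2098 CPM in sham-cKO replicate 2. Summed choroid plexus markers were 26.7 to 1164 CPM in SE-cKO, 23.9 to 673 CPM in SE-WT, 26.6 to 2763 CPM in sham-cKO and 56.8 to 4581 CPM in sham-WT, with 0 of 8 called after SE in either genotype. Summed markers of hippocampal neurons, the labelled tissue, were 280.4 to 345 CPM in SE-cKO, 184 to 555 CPM in SE-WT, 657 to 696 CPM in sham-cKO and 527 to 804 CPM in sham-WT. In whole tissue, fewer cells of a type and less RNA per cell cannot be told apart.

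Ligands known from healthy brain were present in all groups, and of these only Cxcl12 passed the test after SE, in cKO. On the length-scaled TPM level, Cx3cl1 (fractalkine, chr8:94772180-94782427 of GRCm38) ranked first among the members in every group, at 82.8 ± 47.6 TPM in SE-cKO, 109 ± 36.2 TPM in SE-WT, 113 ± 15.9 TPM in sham-cKO and 98.3 ± 7.27 TPM in sham-WT (SD, n = 3, or 4 in sham-cKO). In counts, Cx3cl1 was at 170.2, 104 and 283 CPM in SE-cKO, against 244, 269.8, 224 and 295 CPM in sham-cKO, and 251, 207 and 306 CPM in SE-WT, against 292, 241 and 232 CPM in sham-WT. The SE and sham libraries overlapped in both genotypes, with SE-cKO replicates 1 and 2 below all others. Its log2 fold change on counts in edgeR was -0.43 (adjusted p = 0.332, standard error 0.29) in cKO and -0.01 (adjusted p = 0.987, standard error 0.17) in WT, where the sign turned in the fit of all 4 groups and without SE-WT replicate 2 or sham-WT replicate 1. In cKO it was called lower in 3 alternatives, without SE-cKO replicate 3, at -0.82 (edgeR adjusted p = 0.0367), and in fits of all 4 groups with title style as a term (0.0265) or without the 2 libraries of the other title style (0.0160).

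Cxcl12 (chr6:117168535-117181368), which draws Cxcr4-bearing progenitors and leukocytes, was at 13.2, 14.1 and 10.1 CPM in SE-cKO, against 23.6, 21.5, 19.2 and 17.8 CPM in sham-cKO, and 10.8, 6.94 and 24.9 CPM in SE-WT, against 25.1, 17.9 and 17.8 CPM in sham-WT. In cKO every SE library lay below every sham library, whereas in WT replicate 3 after SE was as high as the sham libraries. It was the only member that fell after SE in cKO, with an edgeR log2 fold change of -0.67 (adjusted p = 0.0241, standard error 0.17), beside 8.92% of all tested genes called lower there. That call was lost without SE-cKO replicate 3 (-0.50, adjusted p = 0.0521 in edgeR) and without sham-cKO replicate 1 (-0.62, adjusted p = 0.0585). It was also lost with a replicate block (0.0502) and in the fit of all 4 groups (0.203), there also with Xist level, title style as a term or the title style libraries left out. In WT its log2 fold change was -0.52 (adjusted p = 0.557, standard error 0.44) in edgeR.

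Of the other ligands present in sham hippocampus, 6 did not pass the test in edgeR. Others, among them Ccl6, Ccl9 and Cxcl16, rose after SE and are described below. Cxcl14, made by interneurons and without a settled receptor, averaged 34.1 ± 11.0 CPM in SE-cKO, 35.3 ± 5.61 CPM in SE-WT, 34.6 ± 3.55 CPM in sham-cKO and 36.2 ± 1.64 CPM in sham-WT (SD). Its log2 fold change was 0.03 in cKO and -0.04 in WT on counts. Ccl27a, a ligand of Ccr10, averaged 24.8 ± 1.87 CPM in SE-cKO, 36.0 ± 13.4 CPM in SE-WT, 33.9 ± 4.45 CPM in sham-cKO and 44.1 ± 9.31 CPM in sham-WT, and its edgeR log2 fold change was -0.40 (adjusted p = 0.0654, standard error 0.13) in cKO and -0.30 (adjusted p = 0.618, standard error 0.28) in WT. Its near-identical copy Ccl27b averaged 2.77 ± 0.0807 CPM in SE-cKO, 3.86 ± 2.63 CPM in SE-WT, 3.61 ± 1.15 CPM in sham-cKO and 5.86 ± 1.72 CPM in sham-WT. Reads may have been split between these copies, and Ccl27a also overlaps Il11ra1 on the opposite strand, so both are uncertain. Ccl25, the ligand of Ccr9 in thymus and gut, averaged 2.57 ± 0.900 CPM in SE-cKO, 3.32 ± 0.543 CPM in SE-WT, 3.14 ± 0.657 CPM in sham-cKO and 3.58 ± 0.723 CPM in sham-WT. Its span overlaps Elavl1 on the opposite strand, which averaged 89.7 CPM in sham-cKO and 82.7 CPM in sham-WT, so the level of Ccl25 is also uncertain. Ccl28, an epithelial ligand of Ccr10 and Ccr3, averaged 1.54 ± 1.54 CPM in SE-cKO, 2.31 ± 0.0882 CPM in SE-WT, 2.44 ± 1.31 CPM in sham-cKO and 2.99 ± 0.233 CPM in sham-WT. Cxcl5, a neutrophil attractant acting on Cxcr2, averaged 1.21 ± 0.731 CPM in SE-cKO, 0.879 ± 0.591 CPM in SE-WT, 1.01 ± 1.29 CPM in sham-cKO and 0.561 ± 0.135 CPM in sham-WT. These 6 ligands passed in none of the edgeR comparisons as reported. Ccl27a was called lower in cKO by DESeq2 (adjusted p = 0.0287) and by edgeR without sham-cKO replicate 2 and, in the fit of all 4 groups, when SE-WT replicates 2 and 3 and sham-cKO replicate 2, rich in those striatal or thalamic markers, were left out.

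**Figure D1:**
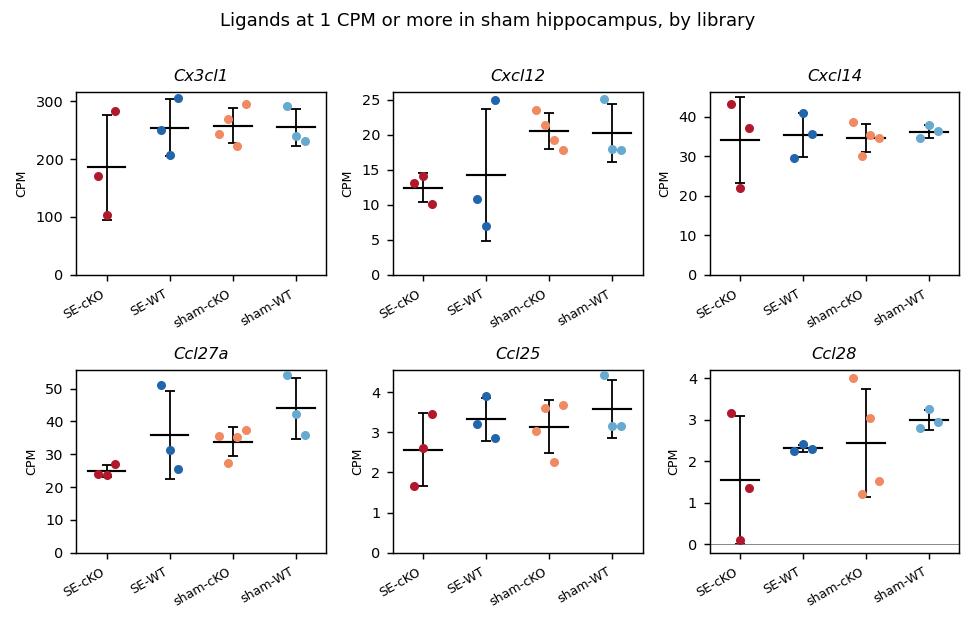
CPM of 6 ligands present in sham hippocampus, 1 panel a gene, with 1 point a library and bars for the mean ± SD of the 3 or 4 libraries of a group, SE groups to the left of sham groups. The SE-cKO libraries of Cxcl12 sit at 10.1 to 14.1 CPM, below the sham-cKO libraries at 17.8 to 23.6 CPM, while the SE and sham libraries of Cx3cl1 and Cxcl14 overlap in both genotypes.

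After SE, 8 inflammatory ligands rose in both genotypes and 5 more in cKO, and all 13 were at or below 2.74 CPM in every sham library. In SE-cKO against sham-cKO, 38 members passed the low-count filter and 21 rose, 13 ligands and 8 receptors, beside 13.8% of all 21307 tested genes called higher. In SE-WT against sham-WT, 34 members were tested and 10 rose, 8 ligands and 2 receptors, beside 4.57% of all 20803 genes, while 0 fell (0.832% of all genes). DESeq2 and limma voom also called 0 lower in WT, and 1 member, Ackr2, had a lower level at an unadjusted p under 0.05. Members silent in sham libraries could pass the filter only through the SE libraries, so these shares describe the members tested and not all 63. The median log2 fold change of the tested members was 2.45 in cKO (2.30 with silent genes at their bounds), against 0.00 over all genes, and 1.94 in WT, against 0.02. All 10 members that rose in WT also rose in cKO. Of the other 11, which were called in cKO, 8 had a positive log2 fold change in WT but did not pass there. The other 3 (Ccl11, Ccr7 and Cxcr2) failed the filter in WT and were not tested. Whether the genotypes differed was tested by an interaction.

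Fewer members were called in WT whichever sham-WT library was left out. Without sham-WT replicate 1 4 members were called higher, Ccl4, Ccl12 and Cxcl16 among them, without replicate 2 there were 4, with Ccl3, Ccl4 and Cxcl16 among them, and without replicate 3 there were 3, which included Ccl4 and Cxcl16. Leaving out SE-WT replicate 1 ended the calls of Ccl2, Ccl3 and Cxcl10 and left 7, and leaving out SE-WT replicate 2 or 3 ended that of Ccl3. The libraries after SE also differed among themselves. Over the 21 inducible members, SE-WT replicate 1 was the highest of its group in 17 and SE-WT replicate 3 the lowest in 18, whereas SE-cKO replicate 2 was the highest in 13 and SE-cKO replicate 1 the lowest in 11.

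Ligands of Ccr2, the receptor that guides monocytes, formed the first group. Ccl12 (chr11:82101845-82103399) was at 12.2, 17.1 and 12.7 CPM in SE-cKO, against 0.249, 0.313, 0.262 and 0.233 CPM in sham-cKO, and 11.9, 8.89 and 3.15 CPM in SE-WT, against 0.613, 0.340 and 0.170 CPM in sham-WT. All SE libraries stood above all sham libraries, and SE-WT replicate 3 was the lowest of them. Its log2 fold change in edgeR was 5.77 (adjusted p = 1.10e-05, standard error 0.24) in cKO and 4.39 (adjusted p = 0.0134, standard error 0.67) in WT. In the order of TPM levels, Ccl12 had rank 3 at 35.3 ± 5.35 TPM in SE-cKO and rank 5 at 18.9 ± 10.04 TPM in SE-WT (SD, n = 3 each). Ccl2, the classical monocyte chemoattractant (MCP-1, chr11:82035577-82037452), was at 7.41, 10.2 and 9.97 CPM in SE-cKO, against 0.236, 0, 0 and 0 CPM in sham-cKO, and 7.55, 1.74 and 0.957 CPM in SE-WT, against 0, 0.0993 and 0 CPM in sham-WT. The 3 SE-cKO libraries were close to each other, SE-WT replicate 1 stood with them, and most sham libraries were at 0. Its edgeR log2 fold change was 7.16 (adjusted p = 0.00182, standard error 1.05) in cKO and 6.60 (adjusted p = 0.0401, standard error 1.37) in WT. The only sham-cKO library with counts of Ccl2 was replicate 1, and without it the call held in edgeR (adjusted p = 0.000306). Ccl7 (MCP-3) ranged over 1.42 to 2.54 CPM in SE-cKO, against 0 to 0.167 CPM in sham-cKO, and over 0.323 to 3.02 CPM in SE-WT, against 0 to 0.163 CPM in sham-WT. It rose in cKO, with an edgeR log2 fold change of 5.72 (adjusted p = 0.00989, standard error 1.19), and in WT its value was 4.58 (adjusted p = 0.128, standard error 1.44). Its only sham-cKO library with counts was replicate 4, without which the call held (edgeR adjusted p = 0.00138).

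Ccl8 and Ccl11 lie in the same stretch of chromosome 11. Ccl8, which in mice acts on Ccr8, ranged over 0.731 to 1.41 CPM in SE-cKO, with 0 counts in the 4 sham-cKO libraries, which makes it at least 23.5-fold higher against a floor of 3 counts per library (edgeR adjusted p = 0.00182). In WT it ranged over 0.385 to 1.74 CPM in SE-WT, against 0 to 0.184 CPM in sham-WT, with a log2 fold change of 3.15 (adjusted p = 0.149, standard error 1.06) in edgeR. Ccl11 (eotaxin), an eosinophil attractant made by fibroblasts, was at 0.133, 1.67 and 2.42 CPM in SE-cKO and at 0 in sham-cKO. It was uneven within the group, at least 32.1-fold higher in SE-cKO (edgeR adjusted p = 0.0107), and failed the filter without SE-cKO replicate 2, sham-cKO replicate 1 or sham-cKO replicate 3. In SE-WT it was at 0.223, 0.0277 and 0 CPM. Summed markers of fibroblasts and meninges were 262 to 362 CPM in SE-cKO, 146 to 275 CPM in SE-WT, 167 to 281 CPM in sham-cKO and 199.9 to 245 CPM in sham-WT. Of these markers 2 of 8 rose in cKO and 0 of 8 in WT, beside 13.8% and 4.57% of all tested genes. Their part in the level of Ccl11 was not tested.

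Other inflammatory CC ligands formed the next group, a run of 5 neighbouring genes on chromosome 11. Ccl3 (MIP-1 alpha) was at 4.80, 6.32 and 5.08 CPM in SE-cKO, against 0.124, 0.172, 0.179 and 0 CPM in sham-cKO, and 5.14, 4.15 and 2.88 CPM in SE-WT, against 0.338, 0 and 0.238 CPM in sham-WT. Every SE library was above every sham library, and the genotypes after SE overlapped. In edgeR its log2 fold change was 5.51 (adjusted p = 0.000760, standard error 0.68) in cKO and 4.38 (adjusted p = 0.0480, standard error 0.96) in WT. Ccl4 (MIP-1 beta), which attracts macrophages and T cells, was at 4.55, 6.14 and 4.46 CPM in SE-cKO, against 0, 0.313, 0 and 0.217 CPM in sham-cKO, and 4.12, 2.88 and 1.72 CPM in SE-WT, against 0, 0 and 0 CPM in sham-WT. Its edgeR log2 fold change was 5.34 (adjusted p = 0.00815, standard error 1.06) in cKO, and in SE-WT it was at least 66.4-fold higher than in sham-WT, where it was at 0 (edgeR adjusted p = 0.00486). Ccl5 (RANTES) reached 0.410, 0.526 and 1.01 CPM in SE-cKO and 0.910, 0.290 and 0.187 CPM in SE-WT and was at 0 in all 7 sham libraries. It was at least 14.8-fold higher in SE-cKO (edgeR adjusted p = 0.00486) and in SE-WT at least 10.6-fold, where the adjusted p was 0.0520.

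Ccl6 and Ccl9, rodent ligands of Ccr1, differed from the others in that sham libraries already held them. Ccl6 was at 6.48, 9.66 and 6.71 CPM in SE-cKO, against 1.01, 1.503, 1.52 and 1.47 CPM in sham-cKO, and 9.66, 7.58 and 3.84 CPM in SE-WT, against 1.56, 1.16 and 1.26 CPM in sham-WT. The SE and sham libraries did not overlap, and SE-WT replicate 1 equalled the highest SE-cKO library. Its log2 fold change in edgeR was 2.52 (adjusted p = 0.000283, standard error 0.26) in cKO and 2.40 (adjusted p = 0.0162, standard error 0.39) in WT. Ccl9 was at 14.2, 17.1 and 14.3 CPM in SE-cKO, against 2.74, 1.82, 1.78 and 2.099 CPM in sham-cKO, and 14.0, 9.94 and 5.62 CPM in SE-WT, against 2.40, 1.86 and 2.52 CPM in sham-WT. All SE libraries exceeded all sham libraries, and SE-WT replicate 3 was the lowest after SE. Its edgeR log2 fold change was 2.90 (adjusted p = 5.42e-05, standard error 0.20) in cKO and 2.12 (adjusted p = 0.0209, standard error 0.36) in WT.

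The CXC ligands that rose were Cxcl10 and Cxcl16 in both genotypes and Cxcl9 in cKO. Cxcl10 (chr5:92346638-92348889), an interferon-induced ligand of Cxcr3, was at 18.1, 13.6 and 24.0 CPM in SE-cKO, against 0.0373, 0.470, 0.0551 and 0 CPM in sham-cKO, and 21.9, 4.65 and 2.201 CPM in SE-WT, against 0.0751, 0.213 and 0 CPM in sham-WT. SE-WT replicate 1 lay within the SE-cKO range, the other SE-WT libraries lay below it, and every SE library exceeded every sham library. In edgeR its log2 fold change was 7.10 (adjusted p = 0.000863, standard error 0.90) in cKO and 6.58 (adjusted p = 0.0302, standard error 1.26) in WT, or 5.10 without SE-WT replicate 1 (adjusted p = 0.0526). Cxcl9, its neighbour and a ligand of the same receptor, ranged over 0.162 to 0.256 CPM in SE-cKO and 0.162 to 0.463 CPM in SE-WT and was at 0 in all 7 sham libraries. It was at least 4.64-fold higher in SE-cKO (edgeR adjusted p = 0.0217), a call lost when any 1 of the SE-cKO libraries was left out (adjusted p from 0.0646 to 0.0914), and in SE-WT the bound was 6.13-fold (adjusted p = 0.0603). Cxcl16, a membrane-anchored ligand of Cxcr6, was at 16.1, 15.7 and 9.19 CPM in SE-cKO, against 1.18, 0.470, 1.19 and 0.317 CPM in sham-cKO, and 11.8, 7.43 and 5.47 CPM in SE-WT, against 1.18, 0.865 and 1.12 CPM in sham-WT. The SE and sham libraries did not overlap, and its edgeR log2 fold change was 4.16 (adjusted p = 0.000579, standard error 0.49) in cKO and 2.96 (adjusted p = 0.00500, standard error 0.35) in WT. Cxcl1, a neutrophil attractant, was at 0.591, 1.58 and 2.13 CPM in SE-cKO, against 0 to 0.289 CPM in sham-cKO, and at 0.926, 0.138 and 0.174 CPM in SE-WT. It did not pass in edgeR, with a log2 fold change of 3.61 (adjusted p = 0.0561, standard error 1.16) in cKO, and in SE-WT it was at least 9.44-fold higher against 0 counts in sham-WT (adjusted p = 0.0770). DESeq2 called it higher in both genotypes (adjusted p = 0.0122 in cKO and 0.00124 in WT), and edgeR did so in cKO without sham-cKO replicate 3. Art3, a gene whose span overlaps Cxcl10, had log2 fold changes of -0.11 in cKO and -0.15 in WT and did not pass.

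**Figure D2:**
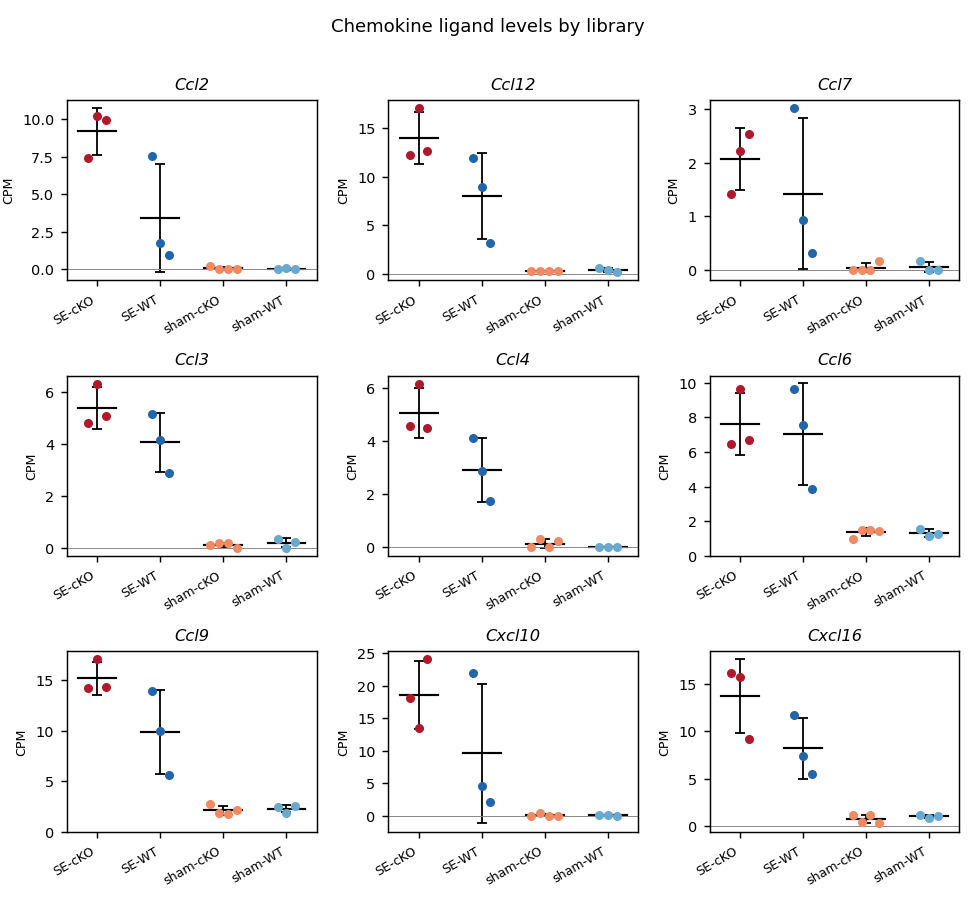
CPM of 9 inducible ligands in each library, 1 panel a gene, with bars for the mean ± SD of a group and SE groups to the left of sham groups. In every panel all SE libraries lie above all sham libraries of the same genotype (Cxcl10 at 13.6 to 24.0 CPM in SE-cKO, against at most 0.470 CPM in sham-cKO), and the gap is smallest for Ccl7 in WT, at 0.323 CPM in the lowest SE-WT library, against 0.163 CPM in the highest sham-WT library.

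The 250 bases before the start site are printed for 4 of these genes (RefSeq, GRCm38.p6). Cxcl10 and Cxcl9 are shown because they are neighbours and hold motif matches, Ccl12 because it had the smallest adjusted p in cKO, and Cxcl12 because it fell. Capitals mark matches, on either strand, to a kappaB form (GGGANNTTC), an interferon-stimulated response element form (GAAANNGAA) and an AP-1 form (TGANTCA).
Cxcl10 (chr5:92348890-92349139, - strand): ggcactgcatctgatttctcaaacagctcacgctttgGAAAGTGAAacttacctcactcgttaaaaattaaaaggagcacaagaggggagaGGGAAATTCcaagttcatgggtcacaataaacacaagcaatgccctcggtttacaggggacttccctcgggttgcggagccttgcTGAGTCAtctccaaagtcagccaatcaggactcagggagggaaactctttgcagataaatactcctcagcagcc
Cxcl9 (chr5:92328080-92328329, - strand): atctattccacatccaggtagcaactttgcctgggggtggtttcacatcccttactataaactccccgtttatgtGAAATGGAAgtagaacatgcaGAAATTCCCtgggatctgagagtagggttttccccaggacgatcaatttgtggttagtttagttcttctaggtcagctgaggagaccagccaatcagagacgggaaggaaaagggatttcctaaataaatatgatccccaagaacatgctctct
Ccl12 (chr11:82101595-82101844, + strand): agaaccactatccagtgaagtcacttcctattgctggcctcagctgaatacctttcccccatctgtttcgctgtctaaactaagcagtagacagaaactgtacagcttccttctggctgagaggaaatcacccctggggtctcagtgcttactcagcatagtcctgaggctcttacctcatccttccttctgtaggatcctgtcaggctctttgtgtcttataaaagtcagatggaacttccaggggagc
Cxcl12 (chr6:117168285-117168534, + strand): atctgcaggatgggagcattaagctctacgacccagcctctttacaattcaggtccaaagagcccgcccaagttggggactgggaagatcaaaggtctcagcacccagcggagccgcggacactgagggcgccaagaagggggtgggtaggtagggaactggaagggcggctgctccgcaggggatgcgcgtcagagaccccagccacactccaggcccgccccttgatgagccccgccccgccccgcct
The Cxcl10 window held 3 matches, an interferon form 213 bases and an AP-1 form 74 bases before the start, with a kappaB form between them. The Cxcl9 window held 2, an interferon form at 175 bases and a kappaB form at 154 bases, and the windows of Ccl12 and Cxcl12 held none of the 3 letter patterns. Promoters were listed for 46 members, and 17, Ccl2 and Ccl4 among them, had none listed. Counting genes with a match in at least 1 listed promoter, the kappaB form was found in 8 of the 46 members (17.4%) and in 3.70% of all 27025 genes, the interferon form in 8 of 46 (17.4%) and in 8.18% of all, and the AP-1 form in 6 of 46 (13.04%) and in 7.82% of all. Among the 13 members with a listed promoter that rose after SE, 3 held the kappaB form, 4 the interferon form and 2 the AP-1 form. These are matches of letters, and no binding was measured.

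Receptors on microglia and monocytes rose, and Cx3cr1 did so in both genotypes. Cx3cr1 (chr9:120048683-120068296), the microglial receptor of Cx3cl1, was at 173, 121 and 89.6 CPM in SE-cKO, against 37.8, 31.4, 34.6 and 38.8 CPM in sham-cKO, and 78.5, 82.6 and 124 CPM in SE-WT, against 30.8, 39.7 and 33.3 CPM in sham-WT. Every SE library exceeded every sham library, and the genotypes overlapped after SE, with SE-cKO replicate 3 the lowest of its group and SE-WT replicate 3 the highest of its own. Its edgeR log2 fold change was 1.90 (adjusted p = 0.000479, standard error 0.21) in cKO and 1.45 (adjusted p = 0.00889, standard error 0.20) in WT, where the adjusted p was 0.0506 to 0.0596 with any 1 sham-WT library left out. By TPM it had rank 2 among the members after SE (45.9 ± 13.03 TPM in SE-cKO and 34.2 ± 13.7 TPM in SE-WT) and rank 4 in sham mice (13.2 ± 1.97 TPM in sham-cKO and 11.4 ± 2.61 TPM in sham-WT). Another gene annotation, GENCODE, gives Cx3cr1 a longer span (chr9:119901616-120069879) than the one printed above. That longer span overlaps other genes, among them Csrnp1, which rose in cKO (log2 fold change 2.36, edgeR adjusted p = 0.0121). Whether reads were counted by strand is not stated.

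Ccr2, the monocyte receptor of Ccl2, Ccl7 and Ccl12, was at 15.8, 30.2 and 5.68 CPM in SE-cKO, against 0.884, 0.251, 0.868 and 0.999 CPM in sham-cKO, and 8.78, 1.74 and 0.671 CPM in SE-WT, against 0.238, 0.355 and 0.459 CPM in sham-WT. The spread after SE was wide in both genotypes, with replicate 3 lowest in each, and SE-WT replicates 2 and 3 were not far above sham-WT. It rose in cKO, with an edgeR log2 fold change of 4.57 (adjusted p = 0.00126, standard error 0.62), while in WT its value was 3.41 (adjusted p = 0.0945, standard error 0.96). DESeq2 called Ccr2 higher in WT (adjusted p = 0.00106), as did edgeR in the fit of all 4 groups and without SE-WT replicate 3, while limma voom did not. Ccr1, the receptor of Ccl3, Ccl6 and Ccl9, was at 5.19, 11.6 and 4.89 CPM in SE-cKO, against 0.573, 0.736, 0.482 and 0.516 CPM in sham-cKO, and 4.66, 2.07 and 1.87 CPM in SE-WT, against 1.61, 0.808 and 0.340 CPM in sham-WT. The genotypes did not overlap after SE, and sham-WT replicate 1 came close to the lowest SE-WT libraries. It rose in cKO, with a log2 fold change of 3.69 (adjusted p = 0.000280, standard error 0.37) in edgeR, and in WT its value was 1.63 (adjusted p = 0.200, standard error 0.63).

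Cxcr4, the signalling receptor of Cxcl12, was at 8.58, 11.0 and 6.37 CPM in SE-cKO, against 3.55, 1.99, 3.79 and 2.25 CPM in sham-cKO, and 4.25, 3.31 and 5.01 CPM in SE-WT, against 2.06, 2.23 and 3.28 CPM in sham-WT. All SE-cKO libraries lay above all others, and SE-WT replicate 2 barely exceeded the highest sham-WT library. Its edgeR log2 fold change was 1.63 (adjusted p = 0.00593, standard error 0.30) in cKO and 0.72 (adjusted p = 0.218, standard error 0.29) in WT. Ackr3, which scavenges Cxcl12, was at 8.72, 9.16 and 14.3 CPM in SE-cKO, against 8.73, 7.56, 7.37 and 9.20 CPM in sham-cKO, and 6.72, 3.62 and 9.75 CPM in SE-WT, against 10.8, 8.20 and 6.58 CPM in sham-WT. Its SE and sham libraries overlapped in both genotypes, and its log2 fold change was 0.43 (adjusted p = 0.167, standard error 0.20) in cKO and -0.36 (adjusted p = 0.647, standard error 0.37) in WT in edgeR.

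Cxcr2, the main receptor of neutrophils for Cxcl1, Cxcl2 and Cxcl5, was at 0.651, 3.41 and 2.70 CPM in SE-cKO, against 0.274, 0, 0 and 0 CPM in sham-cKO, and 0.128, 0.166 and 0.0870 CPM in SE-WT, against 0, 0 and 0 CPM in sham-WT. SE-cKO replicates 2 and 3 stood far above the rest. It rose in cKO at a log2 fold change of 4.97 (adjusted p = 0.0281, standard error 1.33) in edgeR and was not tested in WT. That call was lost without SE-cKO replicate 2 (adjusted p = 0.102 in edgeR), SE-cKO replicate 3 (0.0684) or sham-cKO replicate 4 (0.0622), and in 5 other alternatives, among them DESeq2 (adjusted p = 0.0875) and limma voom (0.0583). It held without sham-cKO replicate 1, the only sham library with counts (0.00562). Ccr7, the homing receptor of dendritic cells and lymphocytes, ranged over 0.244 to 0.338 CPM in SE-cKO and was at 0 in sham-cKO, at least 6.98-fold higher (edgeR adjusted p = 0.0122), a call lost with a replicate block (0.120) and with Xist level in the fit of all 4 groups (0.0548). In WT, where it was not tested, Ccr7 was at 0.447, 0.111 and 0 CPM in SE-WT and at 0 in sham-WT, so SE-WT replicate 1 was above every SE-cKO library. Ackr1, which binds many chemokines on venular endothelium and red cells, was at 1.18, 5.95 and 3.83 CPM in SE-cKO, against 0.112, 0.392, 0.0827 and 0.0666 CPM in sham-cKO, and 0.559, 0.415 and 1.27 CPM in SE-WT, against 0.288, 0.0993 and 0.272 CPM in sham-WT. It was high in SE-cKO replicates 2 and 3 and rose in cKO, with an edgeR log2 fold change of 4.52 (adjusted p = 0.00356, standard error 0.75), and 1.75 (adjusted p = 0.195, standard error 0.67) in WT, where it did not pass. Cadm3, which overlaps Ackr1 on the same strand, did not pass in cKO (log2 fold change -0.31) or WT (-0.01). Ackr2, a scavenger of inflammatory CC chemokines, averaged 0.414 ± 0.251 CPM in SE-cKO, 0.827 ± 0.234 CPM in SE-WT, 0.655 ± 0.370 CPM in sham-cKO and 1.66 ± 0.523 CPM in sham-WT and passed in none of the comparisons by edgeR.

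**Figure D3:**
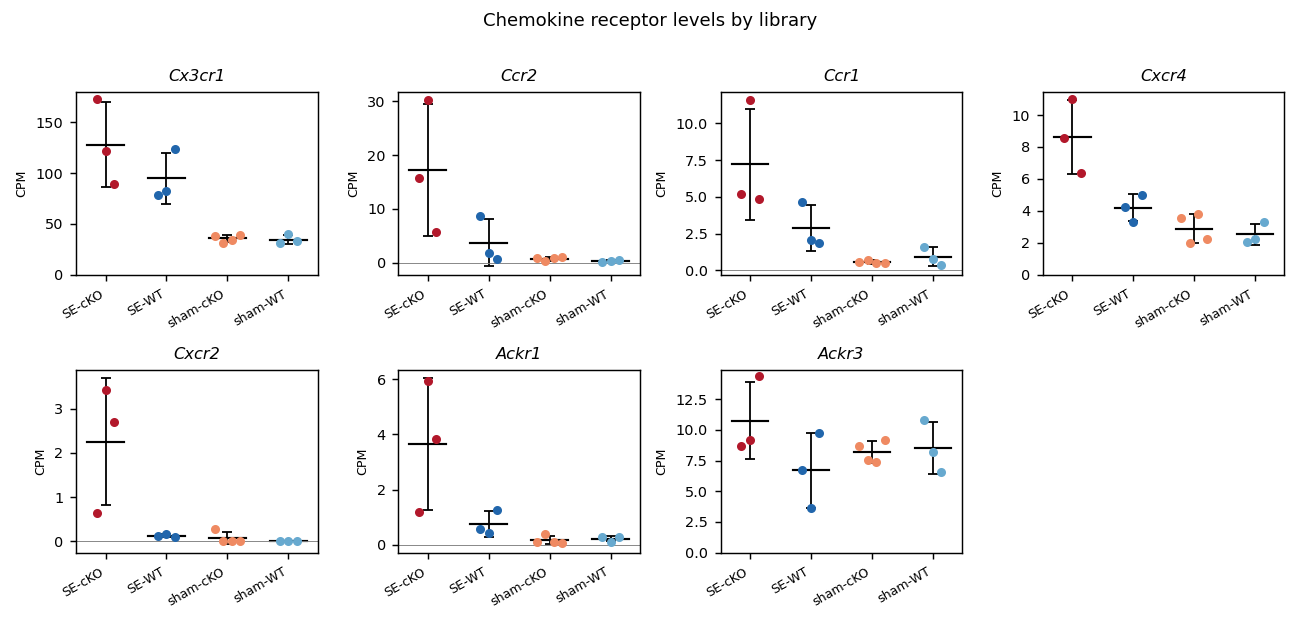
CPM of 7 receptors in each library, 1 panel a gene, with bars for the mean ± SD of a group and SE groups to the left of sham groups. Cx3cr1 sits at 78.5 to 173 CPM after SE and at 30.8 to 39.7 CPM in sham mice, Cxcr2 exceeds 1 CPM only in SE-cKO replicates 2 and 3, and Ackr3 overlaps between SE and sham.

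Of the marker lists of cells known to carry these receptors, the microglia list rose whole in both genotypes and the others in part or not at all. Over all tested genes, 13.8% were called higher and 8.92% lower in cKO, and 4.57% higher in WT. Summed microglia markers were 1773 to 2764 CPM in SE-cKO, 1534 to 2060.2 CPM in SE-WT, 417 to 455 CPM in sham-cKO and 439 to 477 CPM in sham-WT, and 14 of 14 rose in each genotype. Within SE-WT this sum was lowest in replicate 3, as were 18 of the 21 inducible members, whereas Cx3cr1 was highest there. Within SE-cKO the microglia sum was also lowest in replicate 3. Of the 21 inducible members, 7 were lowest in that library and 11 in SE-cKO replicate 1. Summed markers of monocytes and border macrophages were 106 to 257 CPM in SE-cKO, 83.2 to 167 CPM in SE-WT, 30.8 to 42.3 CPM in sham-cKO and 26.7 to 38.9 CPM in sham-WT, with 7 of 12 rising and 1 falling in cKO and 1 of 12, Lyz2, rising in WT. Within SE-cKO, replicate 3 was lowest both in this sum and in Ccr2. Within SE-WT the sum was lowest in replicate 2, at 83.2 CPM, and Ccr2 in replicate 3. Summed neutrophil markers were 20.7 to 36.3 CPM in SE-cKO, 14.8 to 20.0 CPM in SE-WT, 3.59 to 7.45 CPM in sham-cKO and 2.74 to 6.25 CPM in sham-WT, with 2 of 8 tested rising in cKO and 1 of 4 in WT. Most of this sum was Csf3r, which microglia also express and which rose in both genotypes, while Ly6g, which defines neutrophils, stayed at or below 0.274 CPM in every library. S100a8, another neutrophil gene, averaged 2.23 ± 1.37 CPM in SE-cKO, 0.329 ± 0.215 CPM in SE-WT, 0.459 ± 0.243 CPM in sham-cKO and 0.188 ± 0.234 CPM in sham-WT, and rose in cKO. Summed T and NK cell markers were 2.11 to 3.44 CPM in SE-cKO, 2.00 to 7.04 CPM in SE-WT, 1.68 to 2.099 CPM in sham-cKO and 1.47 to 2.01 CPM in sham-WT, 0 of 3 tested passed in either genotype, and Cd3e was at 0 throughout. Summed endothelial markers were 168 to 308 CPM in SE-cKO, 158 to 268 CPM in SE-WT, 155 to 209 CPM in sham-cKO and 172 to 194 CPM in sham-WT, with 4 of 8 rising in cKO and 0 of 8 in WT. The part of these markers in the levels of the chemokine genes was not tested.

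**Figure D4:**
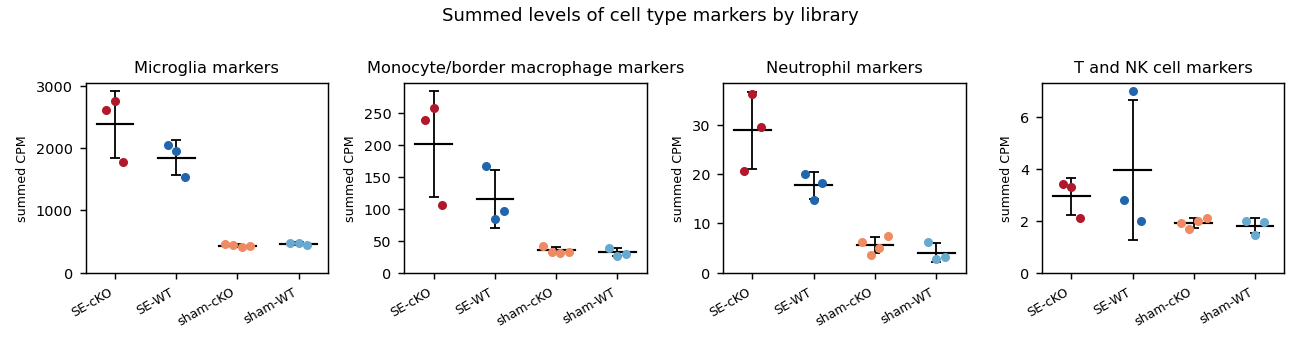
Summed CPM of the microglia, monocyte and border macrophage, neutrophil, and T and NK cell marker lists in each library, 1 panel a list, with bars for the mean ± SD of a group and SE groups to the left of sham groups. Microglia markers sum to 1534 to 2764 CPM after SE and to 417 to 477 CPM in sham mice, and the T and NK cell markers stay at or below 7.04 CPM.

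Many of the members that rose are neighbours in the genome. In a run of 6 genes on chromosome 11 (chr11:82035577-82179812 of GRCm38), Ccl2, Ccl7, Ccl11, Ccl12 and Ccl8 rose in cKO and Ccl2 and Ccl12 in WT, while the sixth, Ccl1, had no counts. In the next run (chr11:83525778-83664683) all 5 genes, Ccl5, Ccl9, Ccl6, Ccl3 and Ccl4, rose in cKO and the last 4 of them in WT. On chromosome 5, Cxcl9 and Cxcl10 rose in cKO and Cxcl10 in WT among the 3 genes of one run (chr5:92321331-92363296), and edgeR called none among the 5 genes of the other (chr5:90759298-90905938), which holds Cxcl1, Cxcl2, Cxcl3, Cxcl5 and Cxcl15, while DESeq2 called Cxcl1 in both genotypes. Cx3cl1 lies between Ccl22 and Ccl17 on chromosome 8, and none of the 3 passed. Runs were defined by gaps of at most 200000 bases, and neighbouring genes are not independent.

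**Figure D5:**
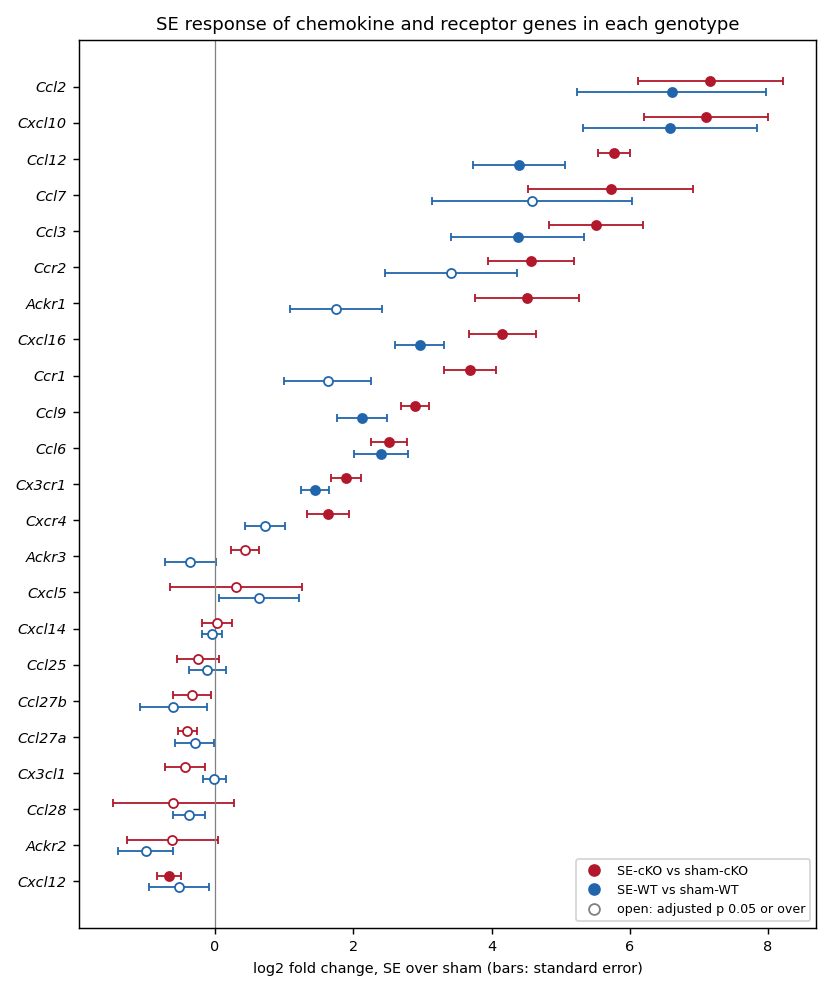
Log2 fold change after SE with its standard error for 23 members, with SE-cKO against sham-cKO drawn above SE-WT against sham-WT for each gene and filled points for an edgeR adjusted p under 0.05. Ccl2 reaches 7.16 in cKO and 6.60 in WT, Cx3cr1 lies at 1.90 and 1.45, and Cxcl12 in cKO, at -0.67, is the 1 filled point below 0.

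The direct comparison of SE-cKO with SE-WT, which asks what Lin28a deletion changed after SE, gave no member past the threshold. In edgeR 0 of 41 tested members were called, as were 0 of all 21126 genes (0% called), and 6 members had an unadjusted p under 0.05, all higher in SE-cKO, beside 5.42% of all genes. These were Cxcr2, with a log2 fold change of 4.15 (adjusted p = 0.261, standard error 0.71) in edgeR, Cxcr4, with 1.07 (adjusted p = 0.347, standard error 0.29), and Ackr1, with 2.31 (adjusted p = 0.361, standard error 0.68). The others were Ccr1, with 1.35 (adjusted p = 0.437, standard error 0.50) in edgeR, Ccl11, with 4.11, and Cxcr6, with 2.36. In DESeq2 the first 3 passed, Cxcr2 with an adjusted p of 9.59e-06, Cxcr4 with 0.0347 and Ackr1 with 0.0269, among 526 genes called, while limma voom called 0 genes. SE-cKO libraries lay above all SE-WT libraries in 7 members (Ccl4, Ccl9, Ccl12, Ccr1, Cxcl13, Cxcr2 and Cxcr4), beside 7.65% of all genes, and below them in 2 (Ccl22 and Ccl24), beside 7.39%. For Ccl9, Ccl12, Ccl4, Ccr1 and Cxcl13 the gap was small. Their lowest SE-cKO library was at 14.2, 12.2, 4.46, 4.89 and 0.205 CPM. Their highest SE-WT library was at 14.0, 11.9, 4.12, 4.66 and 0.194 CPM. Cxcr2, Ccl11, Cxcr6 and Cxcl13 averaged 0.127, 0.0837, 0.0887 and 0.0894 CPM in SE-WT and could not pass the filter through that group alone. The same held for Ccl22 and Ccl24 with SE-cKO alone. The filter thus partly set the direction of such members, here and among the unadjusted p values above. The log2 fold change was positive in 26 of 41 members (63.4%, against 50.1% of all genes), with a median of 0.48, against 0.00 over all genes. These 41 include the members whose direction the filter partly set, so the share and median are not free of it. Among inducible genes the log2 fold change was 1.45 (standard error 0.70) for Ccl2, 0.83 (standard error 0.45) for Ccl12, 0.97 (standard error 0.75) for Cxcl10 and 2.23 (standard error 0.96) for Ccr2. Other inducible genes differed less, and in DESeq2 the log2 fold change was 0.41 for Ccl3, 0.11 for Ccl6 and -0.09 for Ccl8. For Cx3cr1 it was 0.45 (adjusted p = 0.690, standard error 0.28) in edgeR, and in a fit of all 4 groups without the 2 libraries of the other title style it was the only member called (0.94, adjusted p = 0.0324). With every library in that fit its adjusted p was 0.356.

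Without SE, deletion of Lin28a was accompanied by no called member. In sham-cKO against sham-WT, 0 of 27 tested members and 0 of all 20785 genes passed in edgeR (0% called), and DESeq2 and limma voom also called 0 members. Unadjusted p values under 0.05 were found for 3 members (11.1% of those tested, against 5.54% of all genes), all with lower levels in sham-cKO. They were Ackr2 and the near-identical copies Ccl27a and Ccl27b, which may share reads and are not separate results. Their log2 fold changes in edgeR were -1.32, -0.37 and -0.69, each with an adjusted p of 0.868. Whether the SE effect differed between the genotypes was tested by the interaction, which subtracts the WT change after SE from the cKO change. In edgeR 0 of 47 tested members passed, beside 0.159% of all 22596 genes. An unadjusted p under 0.05 was found for 4 (8.51%), a smaller share than the 12.5% of all genes. These were Ackr1, Ccr1, Ccl8 and Cxcr6, all positive. The log2 difference in edgeR was 2.77 (adjusted p = 0.289, standard error 1.03) for Ackr1 and 2.06 (adjusted p = 0.261, standard error 0.73) for Ccr1, and the adjusted p was 0.204 for Ccl8 and 0.2695 for Cxcr6. DESeq2 called 1, Ccl8 (adjusted p = 0.0376), and limma voom 0. For Ccl12 the difference was 1.38 (adjusted p = 0.403, standard error 0.64) in edgeR, and for Cxcr4 0.91 (adjusted p = 0.410, standard error 0.43).

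Genes around the chemokine system were called in part. Over all tested genes, 13.8% were called higher and 8.92% lower in cKO, and 4.57% higher and 0.832% lower in WT. Of the cytokine, NF-kappaB and interferon genes that induce chemokines, 29 of 31 tested rose in cKO and 11 of 30 in WT. The myeloid factor Irf8 had a log2 fold change of 3.47 in cKO and 2.46 in WT, the macrophage master factor Spi1 3.30 and 2.11, the cytokine-activated Stat3 2.11 and 1.53, and the TNF receptor Tnfrsf1a 3.26 and 2.29. Of 38 genes that transmit receptor signals, 19 rose and 5 fell in cKO and 15 rose in WT. Among them were the leukocyte genes Rac2, a GTPase of cell migration (4.08 in cKO and 3.21 in WT), the exchange factor Vav1 (3.22 and 2.06), the kinase Lyn (2.66 and 2.17) and the lipid kinase subunit Pik3cg (2.46 and 1.95). Of the proteases and matrix anchors that cut or hold chemokines, 9 of 19 rose in cKO and 4 of 18 in WT. Adam17, a sheddase of Cx3cl1, was at 1.35 in cKO and 0.86 in WT, and the heparan sulphate carriers Sdc4 at 2.19 and 1.19 and Sdc3 at 0.83 and 0.97. Mmp12, a macrophage protease, averaged 1.31 ± 0.423 CPM in SE-cKO, 0.840 ± 0.432 CPM in SE-WT, 0.0482 ± 0.0965 CPM in sham-cKO and 0 in sham-WT. Of 11 tested chemokine-like genes and decoys outside the symbol rule, 5 rose and 1 fell in cKO and 2 rose in WT, Cmtm6 (0.87 in cKO and 0.67 in WT) and Cmtm3 (1.89 and 1.57). Cmtm7 had 2.55 in cKO and 1.59 in WT (edgeR adjusted p = 0.0560), and Ccrl2, a presenter of chemerin, 1.27 and 1.72 (adjusted p = 0.0993 in WT). Values for these genes are log2 fold changes on counts.

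The remaining 31 members were low and passed in none of the edgeR comparisons as reported. Among them 4 (Ccl1, Ccl26, Cxcl15 and Cxcl3) had no counts in any library, and the other 27 had group means of at most 0.863 CPM and at most 1.65 CPM in any 1 library. Most of the 31 failed the filter and were not tested after SE. Cxcr6 was called higher in cKO by edgeR with no filter, with all groups in 1 fit and in some other alternatives. Ccl21a and Ccl21b, and Ccl19 and its pseudogenes, are near-identical copies whose reads cannot be assigned with certainty.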

How the data were processed

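Hippocampal RNA of 13 mice was sequenced from stranded total-RNA libraries. Reads were converted with bcl2fastq 2.20.0, trimmed with Trimmomatic and mapped to mm10 by HISAT2 2.1.0, and StringTie 2.1.3b gave the abundances. The authors deposited a read count, FPKM and TPM for each of 45777 genes and do not state the strand setting. The deposited counts, whole numbers, entered all tests, the deposited TPM served only to compare levels between genes, and the deposited FPKM were not used. Groups came from the labels, which name separate samples, so p values measure the spread between these libraries.

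Counts were filtered (filterByExpr, minimum count 10, minimum total 15), scaled by TMM and tested over the whole table by robust quasi-likelihood in edgeR (version 4.0.16, R 4.3.3). Fits of 2 groups held only their own libraries, and the interaction held all 13. Tests are two-sided, with Benjamini-Hochberg adjustment over all genes tested and a threshold of 0.05, and were tested on simulated data. CPM are TMM-scaled. Alternatives were DESeq2 1.42.0, limma 3.58.1 voom, RLE size factors, no filter, a shared fit of all groups, a replicate block and each library left out. Xist level, title style as a term, the title style libraries left out and 3 libraries high in striatal or thalamic genes left out were run in the shared fit. The last of these left SE-WT replicate 1 alone in its group.

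Members named had a mean of at least 1 CPM in a group or were called (32 of 63), and up to 4 genes of each other list, those with the smallest p in WT, are named. Values in every library are given for called members with a mean of at least 5 CPM and for the axes of the healthy brain, and some were added after values were seen. Some counts include 1 member whose values are not reported here. The members, lists and rules were chosen with earlier results of these data known.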

Additional observations from a re-analysis of the deposited data

Results flagged for a closer look

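Over 16 sets of 4 sham-cKO values examined, 2 had a sample far from the other 3, where chance gives about 1 in 20. Ccl27b was at 5.31 CPM in sham-cKO replicate 4, against 2.88 to 3.24 CPM in the other 3 libraries. Ccl6 was at 1.01 CPM in sham-cKO replicate 1, against 1.47 to 1.52 CPM in the other 3.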

How the results depend on the processing

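No call reversed its direction under any alternative that could be fitted. In the alternative without the 3 striatal and thalamic libraries, SE-WT replicate 1 stood alone in its group. Of the 22 calls in cKO, 15 passed in all 17 alternatives, and of the 10 calls in WT, 3, which include Ccl4 and Cxcl16, passed in all 16. In WT the count of members called higher was 16 in DESeq2 (which added Ccl5, Ccl7, Ccl8, Ccr2, Cxcl1 and Cxcl9), 7 in limma voom, 8 with no filter, 13 with all groups in 1 fit and 3 to 10 with 1 library left out, and its count called lower was 1 (Cxcl12) without the libraries of the other title style and 0 to 1 with 1 library left out (Ccl21b without sham-WT replicate 1). In cKO the count called higher was 16 to 23, and 18 to 22 with 1 library left out. Its count called lower, Cxcl12 in the reported fit, was 2 in DESeq2 (with Ccl27a), 2 without SE-WT replicates 2 and 3 and sham-cKO replicate 2 (high in striatal or thalamic genes), 0 with all groups in 1 fit, likewise 0 with Xist level as a covariate in that fit, and 0 to 2 with 1 library left out. SE-cKO against SE-WT had 3 members called higher in DESeq2 and 1 without the title style libraries, and the interaction had 1 in DESeq2. The cause of these shifts was not tested. A replicate block gave 7 members higher in WT, 16 higher in cKO and 0 lower in cKO. Same-numbered libraries had correlated deviations of -0.0747 to 0.248, over 0.1 in 3 of 12 pairs, so the numbers were not taken to pair mice.

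The log2 fold change of Cx3cl1 in WT, -0.01 as reported, was 0.0188 with all groups in 1 fit, ranged from -0.13 to 0.13 with 1 library left out, and was 0.12 without SE-WT replicate 2. That of Cxcl12 in SE-cKO against SE-WT, -0.16 as reported, was 0.0047 in limma voom, 0.0353 with a replicate block, 0.14 with Xist level, 0.0528 with title style as a term, 0.68 and 0.21 with the title style or the 3 striatal and thalamic libraries left out, and -0.50 to 0.49 with 1 library left out. None of these values passed the threshold. Depth limited the tests in that most members under 1 CPM failed the filter.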

Other observations

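Values singled out after they were seen concern members below the level for naming. Ccr6, a receptor of lymphocytes, was at 1.30 CPM (94 counts) in SE-WT replicate 2, the library high in striatal markers, at 0.0689 CPM in sham-cKO replicate 3 and at 0 in every other library. Ccl21b, a near-identical copy of Ccl21a, was at 0.543 CPM in SE-cKO replicate 1, 1.65 CPM in sham-cKO replicate 4 and 1.35 and 1.24 CPM in sham-WT replicates 2 and 3, and at or below 0.0249 CPM in the others.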
